A study of Mus musculus with 15 samples.

Results

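The 9 genes described here, Ccl5, Lat, Cd7, Cd3g, Klrd1, Bcl11b, Ctsw, Pdcd1 and Sh2d1b1, belong to T and natural killer (NK) lymphocytes, and they were read in myeloid progenitors with mutant Cebpa. They were chosen by name from 19937 genes measured, some of them for being higher in the mutant groups, so their differences between a mutant and its control are given as a description without a test. Each gene had a single probe set that the annotation assigns to it alone. The study profiled progenitors before leukaemia to find genes deregulated by Cebpa mutations, on 15 oligonucleotide arrays in 5 groups of 3 animals each. The values are log2 expression levels.

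All mice were female C57BL/6 and were killed 3 weeks after conditional knockout; their age is not given in the sources used here. All carried the Mx1Cre transgene, which the labels of the wild-type group write as Mx1Ce, so Cre was present in the controls as well. Its Mx1 promoter responds to interferon and is active in blood cells and in other tissues. PreGM, the earlier granulocyte-macrophage progenitors, came from cebpa +/+ (preGM +/+) and cebpa fl/p30 (preGM fl/p30) mice. GMP, the later granulocyte-macrophage progenitors, came from cebpa fl/+ (GMP fl/+), cebpa fl/BRM2 (GMP fl/BRM2) and cebpa fl/p30 (GMP fl/p30) mice. Here fl marks the floxed allele that Cre removes. The p30 allele makes only the shorter form of the transcription factor C/EBPα, and BRM2 is a mutant of its basic region. The preGM and GMP controls thus differed in genotype, and the same 3 fl/p30 animals gave both fl/p30 groups. Both cell types were sorted from cKit-enriched bone marrow as lineage-, Sca1-, cKit+, CD150- and CD41-; GMP were FcgRII+, and preGM were FcgRII- and Endoglin-.

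T cells recognise antigen through the T cell receptor, whose CD3 chains pass the signal to kinases and to the adaptor LAT. NK cells read other cells through receptors of the CD94 and SLAM families, and both lymphocytes kill with granule proteases and release chemokines such as CCL5. In adult marrow C/EBPα drives progenitors toward granulocytes and macrophages, and most of these lymphocyte genes are best known outside that program.

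The sorted cells were compared with the genes of their labels, and these were not all on the side of the gate. Mpo, the myeloperoxidase of granulocyte precursors, lay between 12.53 and 13.10 in the 5 group means, and Kit between 9.79 and 10.37. The mean over 16 progenitor markers, Mpo and Kit among them, lay between 9.83 and 10.16 in the GMP fl/+ arrays. It lay between 8.89 and 9.85 in GMP fl/BRM2 and between 8.79 and 10.04 in GMP fl/p30. In preGM it lay between 8.96 and 9.21 in +/+ and between 8.20 and 8.54 in fl/p30. Csf3r and Csf2ra were called lower in both GMP mutant groups and Csf1r in preGM fl/p30. Csf2rb was called higher in both GMP mutant groups and Cebpa in GMP fl/p30. Fcgr3, of the receptor family that the FcgR gate reads, was at 6.32 in preGM +/+ and 6.95 in preGM fl/p30, and at 9.30 to 9.39 in the GMP groups. Fcgr2b, which encodes FcgRII, was at 7.18 in preGM +/+ and 6.61 in preGM fl/p30, and at 8.66 in GMP fl/+, but at 7.61 in GMP fl/BRM2 and 7.59 in GMP fl/p30, whose arrays overlapped those of preGM +/+. Eng, the gene of Endoglin, was higher in the Endoglin- preGM (7.45 and 7.24) than in the GMP groups (6.71 to 6.87). Itga2b, the gene of CD41, which the gate excludes, was at 6.90 in GMP fl/+, at 7.89 in GMP fl/BRM2 and at 7.95 in GMP fl/p30, and was called higher in GMP fl/p30. Cebpa itself lay between 8.10 and 9.31 in the 15 arrays, but the position of its probes relative to the deletion is unknown here, so it checks nothing about the deletion. The elastase gene Elane averaged 5.50 in preGM fl/p30, below the background level used here. That level, 5.75, is the 95th percentile over 1194 olfactory and vomeronasal receptor genes in the 15 arrays. Array medians lay between 6.03 and 6.23.

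Cd3g and Klrd1 exceeded that background level in 0 of 15 arrays, Ctsw in 14 and the other 6 genes in all 15. The values of Cd3g and Klrd1 are therefore those of probe sets that cannot be told from background, and their differences are read only as such. In bulk samples fewer cells of a type and less RNA per cell cannot be told apart. Where the lower group lay below the array medians, the difference is given in log2 only and may understate the change.

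**Figure D1:**
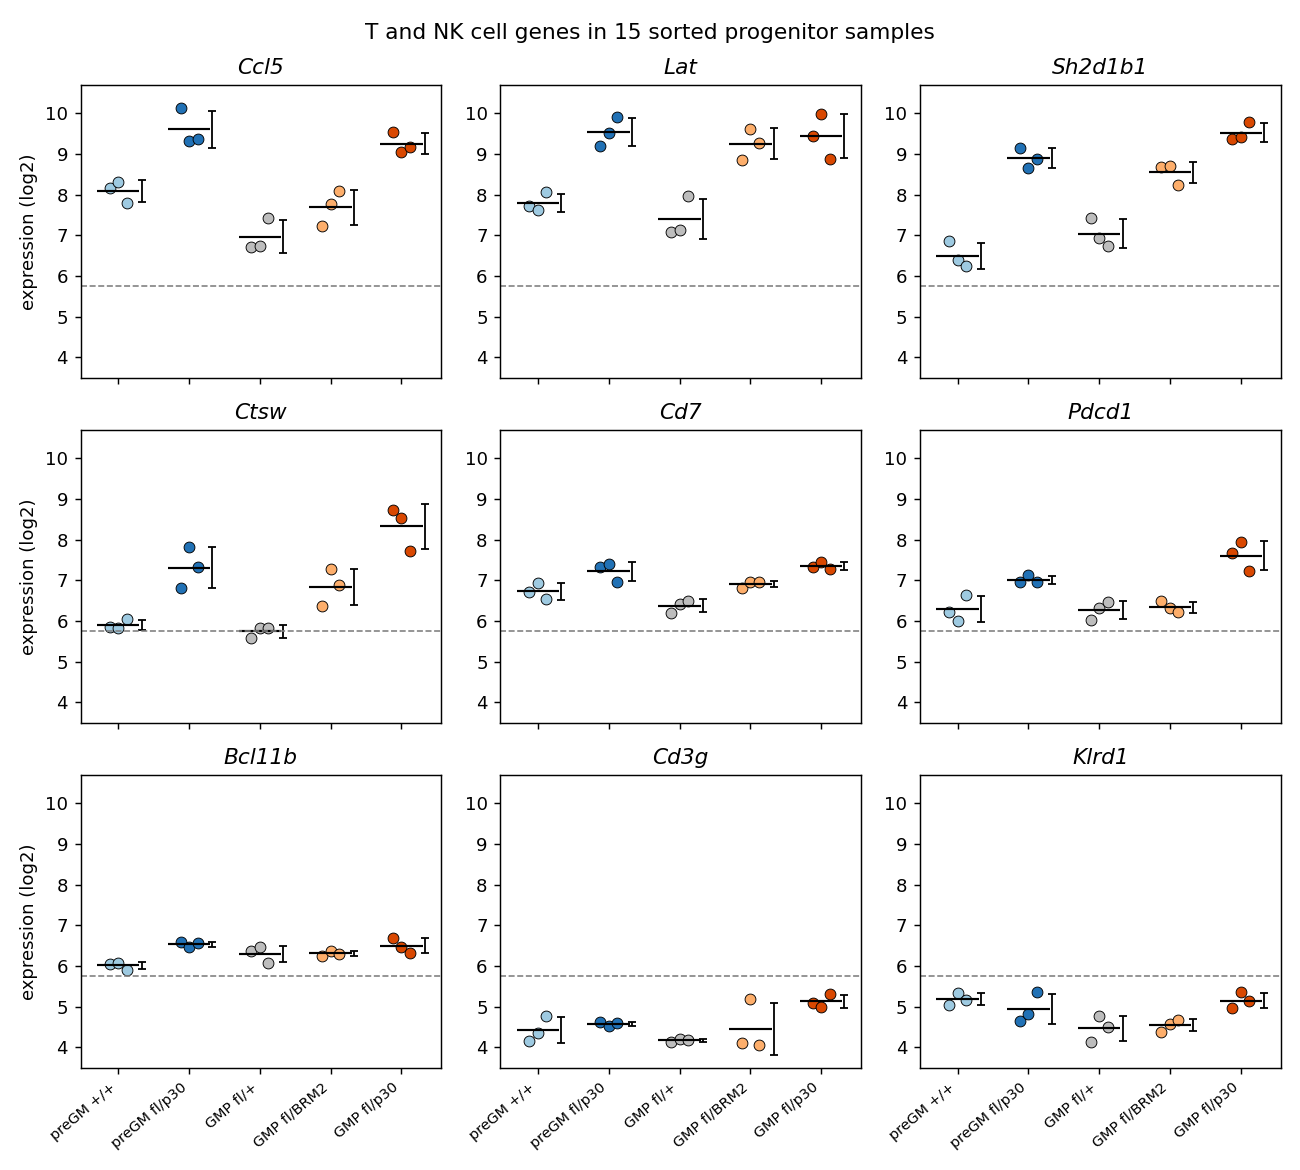
Log2 expression (vertical axis) of the 9 genes in the 5 groups (horizontal axis); points are arrays, the line is the mean of 3 arrays, the bar is the SD, and the dashed line is the background level of 5.75. Sh2d1b1 and Lat lie above it everywhere, whereas all arrays of Cd3g and Klrd1 lie below it.

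Lat and Sh2d1b1 encode signalling adaptors. LAT is the membrane adaptor that gathers signalling proteins below the T cell receptor, and it also serves mast cells and platelets. The product of Sh2d1b1, EAT-2, binds the tails of SLAM family receptors in NK cells. Their promoters are shown because both genes lay higher in each mutant group without overlap, and that of Pdcd1 because that gene lay higher in the p30 groups and overlapped its control in fl/BRM2. The sequences are from RefSeq (GRCm38.p6), which held promoters of 5 of the 9 genes in the table used. Each runs from 250 bases before the gene start to 50 after it, 5′ to 3′ on the gene's strand. Lat lies at chr7:126369519-126369818 on the minus strand, Sh2d1b1 at chr1:170277068-170277367 on the plus strand and Pdcd1 at chr1:94052504-94052803 on the minus strand. Capitals mark matches, on either strand, to the letters TGTGGT, bound by RUNX factors, GGAAGT, bound by ETS factors, or AGATAA, bound by factors of the GATA family.
Lat: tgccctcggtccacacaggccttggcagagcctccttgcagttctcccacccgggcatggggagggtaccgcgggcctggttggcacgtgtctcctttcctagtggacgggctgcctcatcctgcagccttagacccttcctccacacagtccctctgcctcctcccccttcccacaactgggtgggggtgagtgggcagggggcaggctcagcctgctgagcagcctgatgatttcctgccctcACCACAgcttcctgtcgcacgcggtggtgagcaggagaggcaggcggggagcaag
Sh2d1b1: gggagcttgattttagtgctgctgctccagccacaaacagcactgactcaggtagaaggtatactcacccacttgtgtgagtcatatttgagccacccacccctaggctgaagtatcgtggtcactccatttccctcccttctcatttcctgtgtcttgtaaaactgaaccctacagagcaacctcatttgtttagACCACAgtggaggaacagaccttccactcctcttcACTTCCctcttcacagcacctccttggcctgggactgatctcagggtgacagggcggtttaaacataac
Pdcd1: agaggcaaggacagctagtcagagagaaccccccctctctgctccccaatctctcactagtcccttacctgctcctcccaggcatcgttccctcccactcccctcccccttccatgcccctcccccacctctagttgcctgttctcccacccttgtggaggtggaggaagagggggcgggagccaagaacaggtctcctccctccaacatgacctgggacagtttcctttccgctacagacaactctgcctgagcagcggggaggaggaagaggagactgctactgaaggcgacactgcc

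Lat and Sh2d1b1 each held 1 RUNX match, and Sh2d1b1 also held 1 ETS match, while the Pdcd1 window held 0 of the 3 motifs. RUNX letters occurred in 16.8% of all 32851 promoter windows of this length, ETS letters in 23.8% and GATA letters in 11.2%. A form of the C/EBP motif, TTNNGNAA, occurred in 40.7% of windows and in 0 of these 3. Of the promoters not shown, that of Bcl11b held 1 such match and 1 ETS match. That of Cd3g held 0 such matches and 1 GATA match. A match is a description of letters and not a bound site, and no match says only that these letters are not in the window.

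Sh2d1b1 was at 6.85, 6.39 and 6.24 in the preGM +/+ arrays and at 9.15, 8.66 and 8.87 in preGM fl/p30. In GMP it was at 7.43, 6.94 and 6.74 in fl/+, at 8.69, 8.70 and 8.25 in fl/BRM2, and at 9.37, 9.42 and 9.80 in fl/p30. All 9 mutant arrays lay above all 6 control arrays. The difference from the control was 2.40 ± 0.21 (SE, n = 3 arrays per group) in preGM fl/p30, or 5.28-fold. In GMP it was 1.51 ± 0.21 (2.85-fold) in fl/BRM2 and 2.49 ± 0.21 (5.63-fold) in fl/p30. Among the 9 genes it had the widest span of group means, 3.04.

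Lat was at 7.71, 7.63 and 8.06 in preGM +/+ and at 9.21, 9.53 and 9.90 in preGM fl/p30. In GMP it was at 7.08, 7.14 and 7.96 in fl/+, at 8.86, 9.62 and 9.27 in fl/BRM2, and at 9.44, 9.98 and 8.89 in fl/p30. Here too all mutant arrays lay above all control arrays, and the 3 mutant groups overlapped one another. The difference from the control was 1.75 ± 0.29 (3.35-fold) in preGM, and in GMP it was 1.86 ± 0.29 (3.62-fold) for fl/BRM2 and 2.04 ± 0.29 (4.12-fold) for fl/p30.

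CCL5, a secreted protein, is a chemokine that draws T cells, monocytes and eosinophils. Ccl5 was at 8.16, 8.31 and 7.80 in preGM +/+ and at 10.14, 9.32 and 9.36 in preGM fl/p30. Among GMP it was at 6.72, 6.75 and 7.43 in fl/+, at 7.22, 7.77 and 8.08 in fl/BRM2, and at 9.55, 9.05 and 9.17 in fl/p30. The fl/p30 arrays of both stages were the highest, fl/BRM2 overlapped GMP fl/+, and the wild-type preGM lay between. The difference was 1.52 ± 0.27 (2.87-fold) in preGM fl/p30, 2.29 ± 0.27 (4.89-fold) in GMP fl/p30 and 0.72 ± 0.27 in GMP fl/BRM2.

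Ctsw encodes cathepsin W, a cysteine protease of cytotoxic T and NK cells. It was at 5.86, 5.82 and 6.05 in preGM +/+ and at 5.57, 5.83 and 5.84 in GMP fl/+, near the background level in both controls. In the mutants it was at 6.80, 7.82 and 7.32 in preGM fl/p30, and in GMP at 6.37, 7.27 and 6.88 with fl/BRM2 and at 8.74, 8.53 and 7.71 with fl/p30. All mutant arrays lay above all control arrays, and GMP fl/p30 was the highest group. The log2 difference was 1.40 ± 0.28 in preGM, and in GMP it was 1.10 ± 0.28 for fl/BRM2 and 2.58 ± 0.28 for fl/p30.

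PD-1, the product of Pdcd1, is an inhibitory surface receptor of activated T cells. Pdcd1 was at 6.22, 6.01 and 6.65 in preGM +/+ and at 6.95, 7.13 and 6.95 in preGM fl/p30. GMP arrays gave 6.03, 6.33 and 6.46 in fl/+, at 6.48, 6.31 and 6.21 in fl/BRM2, and at 7.67, 7.94 and 7.22 in fl/p30. The 6 fl/p30 arrays were the highest of all 15, and the fl/BRM2 arrays lay among the controls. The difference was 0.71 ± 0.19 (1.64-fold) in preGM fl/p30, 1.34 ± 0.19 (2.53-fold) in GMP fl/p30 and 0.06 ± 0.19 in GMP fl/BRM2.

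CD7 is a surface glycoprotein of T cells, NK cells and early lymphoid progenitors. Cd7 was at 6.72, 6.94 and 6.53 in preGM +/+ and at 7.33, 7.39 and 6.96 in preGM fl/p30. GMP arrays gave 6.19, 6.43 and 6.50 in fl/+, at 6.82, 6.96 and 6.95 in fl/BRM2, and at 7.32, 7.46 and 7.27 in fl/p30. Each mutant group lay above its own control without overlap, by 0.50 ± 0.14 in preGM, and in GMP by 0.53 ± 0.14 for fl/BRM2 and 0.98 ± 0.14 for fl/p30.

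Klrd1 encodes CD94, the partner chain of the NKG2 receptors of NK cells, and Cd3g the gamma chain of the CD3 complex. Klrd1 was at 5.04, 5.34 and 5.16 in preGM +/+, at 4.64, 4.81 and 5.35 in preGM fl/p30, at 4.14, 4.76 and 4.50 in GMP fl/+, at 4.38, 4.57 and 4.68 in GMP fl/BRM2, and at 4.96, 5.35 and 5.14 in GMP fl/p30. Cd3g was at 4.15, 4.35 and 4.78 in preGM +/+, at 4.62, 4.52 and 4.59 in preGM fl/p30, at 4.13, 4.20 and 4.19 in GMP fl/+, at 4.11, 5.19 and 4.06 in GMP fl/BRM2, and at 5.09, 5.0 and 5.30 in GMP fl/p30. Both were highest against their control in GMP fl/p30, by 0.68 ± 0.19 for Klrd1 and 0.96 ± 0.24 for Cd3g, all below the background level. The Cd3g value of 5.19 in GMP fl/BRM2 came from replicate 2 alone. In preGM fl/p30 the differences were -0.25 ± 0.19 and 0.15 ± 0.24, with overlapping arrays.

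Bcl11b, the zinc finger factor that fixes T cell commitment, had the narrowest span of group means (0.52). It was at 6.05, 6.08 and 5.91 in preGM +/+ and at 6.58, 6.47 and 6.56 in preGM fl/p30. Among GMP it was at 6.36, 6.46 and 6.08 in fl/+, at 6.25, 6.38 and 6.30 in fl/BRM2, and at 6.70, 6.47 and 6.33 in fl/p30. The preGM groups did not overlap (difference 0.52 ± 0.12), while the 3 GMP groups did (0.01 ± 0.12 in fl/BRM2 and 0.20 ± 0.12 in fl/p30). With group means between 6.01 and 6.54, it lay near the array medians.

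Between GMP fl/p30 and GMP fl/+, 8 of the 9 genes were higher in every mutant array, against 9.16% of all genes, and the median difference was 1.34 against -0.04 over all genes. For GMP fl/BRM2 the count was 4 of 9, against 6.74% of all genes, with a median of 0.53 against -0.02. For preGM fl/p30 it was 7 of 9, against 12.4%, with a median of 0.71 against 0.03. These contrasts served to choose some of the genes, so nothing is read from the counts. The 2 GMP comparisons share the 3 GMP fl/+ arrays.

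**Figure D2:**
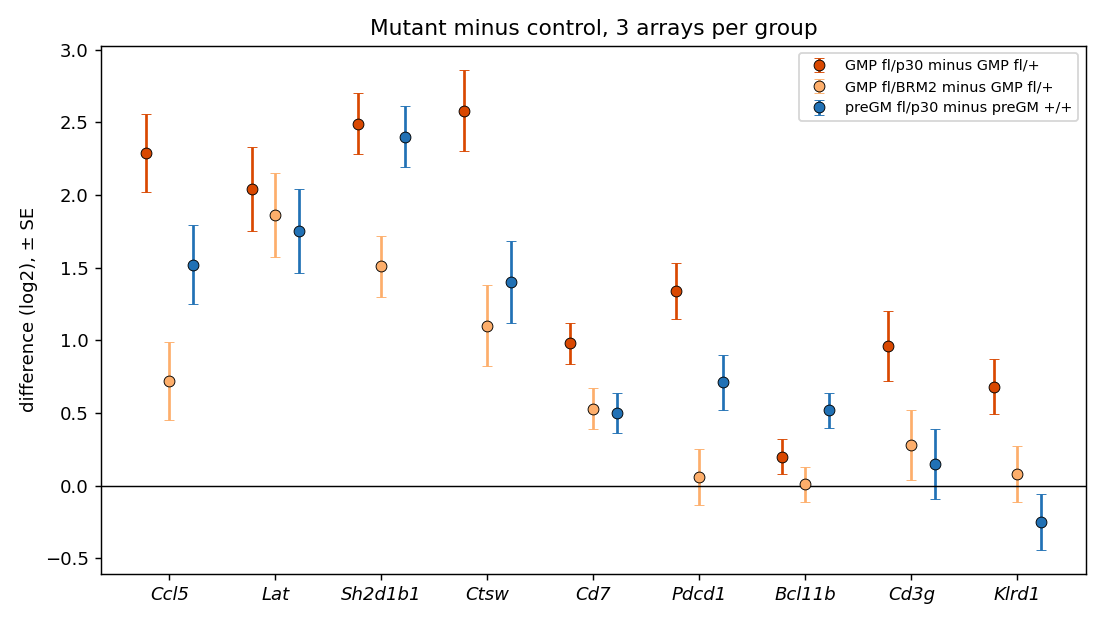
Log2 difference of each mutant group from its control (vertical axis) for the 9 genes (horizontal axis). Bars are ± SE from the fit over 15 arrays. Sh2d1b1 and Lat lie above 1.5 in all 3 comparisons, and Pdcd1, Klrd1 and Bcl11b lie near 0 in GMP fl/BRM2.

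The 2 mutant alleles were set against each other in GMP, fl/p30 against fl/BRM2, a contrast that did not serve to choose the genes, although its arrays did. All 9 differences were above 0, and 6 genes were higher in every fl/p30 array (Ccl5, Cd7, Klrd1, Ctsw, Pdcd1 and Sh2d1b1), against 4.67% of all genes. The largest were those of Ccl5, 1.57 (95% interval 0.99 to 2.14, adjusted p = 0.134), Ctsw, 1.48 (0.87 to 2.09, adjusted p = 0.198), Pdcd1, 1.28 (0.88 to 1.68, adjusted p = 0.0809), and Sh2d1b1, 0.98 (0.53 to 1.43, adjusted p = 0.313), by limma with Benjamini-Hochberg adjustment over all genes. Lat differed by 0.19, with an interval of -0.44 to 0.82 (adjusted p = 1).

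None of the 9 genes passed the threshold of 0.05 in limma, where 0.00502% of all genes, a single gene, did. At an unadjusted p under 0.05 there were 7 of 9, against 3.45% of all genes. High values in the GMP fl/p30 arrays helped to choose some of the 9 genes, so the choice partly sets these counts, and nothing is read from them. The median difference was 0.68 against -0.01 over all genes. It was 1.05 without GMP fl/BRM2 replicate 2, in which 6 of the 9 genes had their highest fl/BRM2 value. Without GMP fl/p30 replicate 3, 2 of the 9 genes passed, where 10 of all 19937 genes were called higher and 2 lower. With arrays weighted by quality 6 of the 9 passed, where 211 of all genes were called higher and 72 lower.

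The fl/p30 levels of the 2 stages came from the same 3 animals. The intervals and adjusted p-values here are those of the fit over 15 arrays, which leaves the animal out; with the animal as a block the adjusted p of the 9 genes ranged from 0.111 (Ctsw) to 0.935 (Bcl11b). Ctsw was higher in GMP than in preGM by 1.94, 0.71 and 0.38 in the animals of replicates 1, 2 and 3 (mean 1.01, 95% interval 0.40 to 1.62, adjusted p = 0.139). Sh2d1b1 was higher by 0.22, 0.76 and 0.93 (0.64, interval 0.19 to 1.09, adjusted p = 0.202), Pdcd1 by 0.73, 0.81 and 0.27 (0.60, interval 0.20 to 1.01, adjusted p = 0.179) and Cd3g, below background, by 0.47, 0.49 and 0.71 (0.56, adjusted p = 0.342). Ccl5 was lower in GMP in all 3 animals, by -0.60, -0.27 and -0.19 (interval of the mean -0.92 to 0.22, adjusted p = 0.665). Lat, Klrd1, Cd7 and Bcl11b had differences of both signs among the 3 animals.

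By limma 0 of the 9 genes passed this comparison, against 0.642% of all genes, and 4 of 9 had an unadjusted p under 0.05, against 12.4%. The arrays did not overlap for 3 genes (Cd3g, Pdcd1 and Sh2d1b1), against 9.44% of all genes. The arrays of both groups also served to choose some of the 9 genes, so nothing is read from these counts. The median difference was 0.21, and 0.03 over all genes. It was 0.42 without preGM fl/p30 replicate 3 and 0.11 without GMP fl/p30 replicate 2. Without GMP fl/p30 replicate 3, 1 of the 9 genes passed, where 75 of all 19937 genes were called higher and 44 lower.

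In the controls 2 genes were lower in GMP fl/+ than in preGM +/+, against 6.02% of all genes called lower. Ccl5 fell by 1.12 ± 0.27, with adjusted p = 0.0206 by limma, and Klrd1, below background in both, fell by 0.71 ± 0.19 (adjusted p = 0.0318). Of the other 7 genes none passed; Cd7, Sh2d1b1 and Bcl11b came nearest, with -0.36 (adjusted p = 0.103), 0.54 (adjusted p = 0.102) and 0.29 (adjusted p = 0.126). Low values in these control arrays helped to choose some of the 9 genes. The choice may therefore partly set these differences and calls, and nothing is read from them. These controls differed in Cebpa genotype as well as in stage, and the 2 cannot be told apart. Ccl5 no longer passed with preGM +/+ replicate 1 or 2 or GMP fl/+ replicate 2 left out (adjusted p up to 0.0816), and Klrd1 with any preGM +/+ array or GMP fl/+ replicate 1 or 3 left out (up to 0.11). The arrays of Ccl5, Cd7 and Klrd1 did not overlap, 3 lower genes of 9 against 12.9% of all genes. The median of the 9 genes was -0.26, against 0.08 over all genes, and it was -0.10 without preGM +/+ replicate 3.

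**Figure D3:**
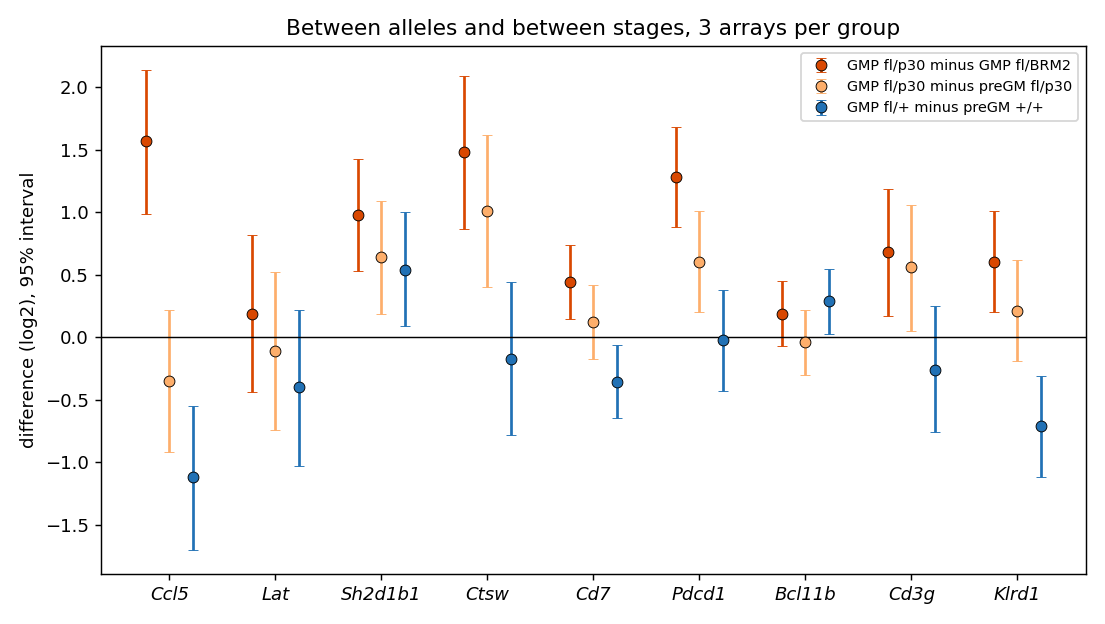
Log2 difference (vertical axis) of the 9 genes (horizontal axis) between GMP fl/p30 and GMP fl/BRM2, between GMP fl/p30 and preGM fl/p30, and between the control groups. Bars are 95% intervals from the fit over 15 arrays. Ccl5, Ctsw and Pdcd1 lie above 1 between the alleles, and Ccl5 lies at -1.12 between the controls.

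The difference between the p30 effect in GMP and that in preGM was positive for 8 of the 9 genes and is given without a test. It was 1.18 ± 0.40 for Ctsw, 0.93 ± 0.27 for Klrd1, 0.77 ± 0.38 for Ccl5 and 0.62 ± 0.27 for Pdcd1, with 0.09 ± 0.30 for Sh2d1b1 and -0.32 ± 0.17 for Bcl11b. For Ccl5 the 2 fl/p30 levels lay within 0.35 of each other while the controls lay 1.12 apart. The effect in GMP is taken against fl/+ and that in preGM against +/+, so stage and control genotype cannot be told apart here.

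The cells' own lymphocyte markers were examined beside these values. Of 15 markers of mature T cells 13 were measured, and their mean over the list lay between 5.51 and 5.76 in the GMP fl/+ arrays, between 5.69 and 5.77 in GMP fl/BRM2, and between 5.83 and 6.07 in GMP fl/p30. It lay between 5.59 and 5.66 in preGM +/+ and between 5.67 and 5.80 in preGM fl/p30. Group means exceeded the background level for 6 of the 13 in GMP fl/+ and for 9 in GMP fl/p30. The summed level of the list, on the log2 scale, ranged from 9.48 to 9.98 in GMP fl/+ and from 9.98 to 10.34 in GMP fl/p30.

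Cd3d averaged 4.09 to 4.83 over the 5 groups, and its 5.91 in GMP fl/p30 replicate 1 was its only value above the background level. Cd4 averaged 5.21 to 5.29, below background, Cd8b1 5.07 to 5.28, Cd3e 6.04 to 6.31 and Cd247 6.21 to 6.33, near the array medians. Only Thy1, which early progenitors carry too, was clearly above, with group means of 7.84 to 8.79. Themis and Trat1, 2 of 13, were called higher by limma in GMP fl/p30, where 4.69% of all genes were. There Themis exceeded the background level in 2 of 3 arrays and Trat1 in 0 of 3. In preGM fl/p30 and in GMP fl/BRM2 0 were called higher, where 0.647% and 1.89% of all genes were. Cd28 was called lower in preGM fl/p30, where 1.03% of all genes were. At an unadjusted p under 0.05 there were 4 in preGM fl/p30, Cd28 among them, and 1 in GMP fl/BRM2. The share of all genes at that unadjusted level is not given here.

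Of the 12 markers of NK cells, all measured, 2 or 3 exceeded the background level in each group, and by limma 0 passed in any of the 3 comparisons of a mutant with its control. At an unadjusted p under 0.05, again without the share of all genes, there were 2 in GMP fl/p30, and 0 in the other 2 comparisons. Their mean lay between 5.17 and 5.88 in the 15 arrays, and their summed level between 10.31 and 11.76. Nkg7, a granule membrane protein of killer cells, stood at 9.85 in preGM +/+ and at 10.97 and 11.00 in GMP fl/+ and GMP fl/p30. Ncr1, the NK receptor NKp46, averaged at most 5.37 and Klrb1c at most 4.26. Both lists had their highest mean in GMP fl/p30. For T cells it was 6.07, in replicate 1, where Ccl5, Ctsw and Bcl11b had their highest values of that group; for NK cells it was 5.88, in replicate 3, where Cd3g and Sh2d1b1 had theirs and 5 of the 9 genes their lowest.

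Markers of some other lineages moved with the groups. The mean over 13 erythroid and megakaryocyte markers lay between 6.87 and 7.09 in GMP fl/+, between 7.69 and 8.28 in GMP fl/BRM2, and between 7.66 and 8.13 in GMP fl/p30. It lay between 7.47 and 7.71 in preGM +/+ and between 8.03 and 8.09 in preGM fl/p30. The mean over 11 basophil and mast cell markers lay between 7.22 and 7.65 in GMP fl/+, 7.88 and 8.20 in GMP fl/BRM2, and 7.81 and 8.11 in GMP fl/p30, but its genes split. In GMP fl/p30 4 were called higher (Cpa3, Gata2, Cma1 and Slc18a2) and 3 lower (Mcpt8, Prss34 and Hdc), and in GMP fl/BRM2 the same 4 were higher and Prss34 and Hdc lower. Of all genes, 4.69% were called higher and 1.37% lower in GMP fl/p30, and 1.89% and 0.642% in GMP fl/BRM2. The mean over 11 neutrophil markers lay between 7.44 and 8.13 in GMP fl/+, between 6.33 and 7.33 in GMP fl/BRM2 and between 5.63 and 7.22 in GMP fl/p30. In preGM it lay between 7.04 and 7.98 in +/+ and between 5.60 and 5.75 in fl/p30. There 4 of the 11 were called lower, against 1.03% of all genes. In GMP 5 were called lower in fl/p30 and 2 in fl/BRM2. The 14 B lymphoid markers stood at 7.65 in preGM +/+ replicate 3 and at 6.14 and 6.19 in the other preGM +/+ arrays. Among them only Il7r was called in a comparison of a mutant with its control, higher in GMP fl/p30. Of 9 plasmacytoid dendritic cell markers and 12 macrophage markers, 0 were called in any of these 3 comparisons. The part of all these markers in the differences of the 9 genes was not tested.

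**Figure D4:**
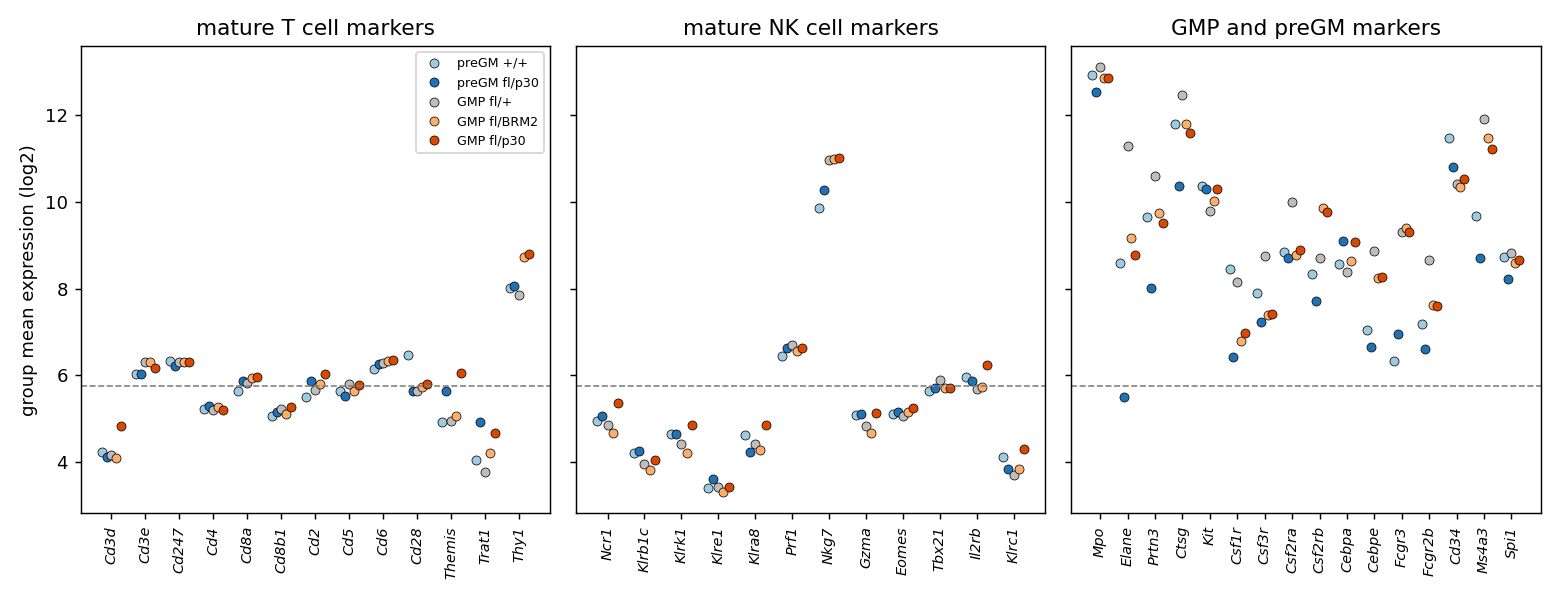
Log2 level (vertical axis) of single marker genes (horizontal axis) of the mature T cell, mature NK cell, and GMP and preGM lists. Each point is the mean of 1 of the 5 groups and the dashed line is the background level of 5.75. Thy1 lies highest in the T list, with group means of 7.84 to 8.79, and Nkg7 in the NK list, with 9.85 to 11.00.

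How other genes of the same pathways behaved was read from 7 lists with 109 entries, of which 99 were measured. The lists were chosen with earlier results of these data known, so their shares are a description and no enrichment is read from them. Against GMP fl/+, 22 of the 99 were called higher and 0 lower in GMP fl/p30, or 22.2% and 0%, where 4.69% and 1.37% of all genes were. In GMP fl/BRM2 11 were called higher and 0 lower, or 11.1% and 0%, where 1.89% and 0.642% of all genes were. In preGM fl/p30 6 were called higher and 3 lower (Cd28, Notch1 and Btla), or 6.06% and 3.03%, where 0.647% and 1.03% of all genes were. In these 3 comparisons 77, 88 and 90 of the 99 did not pass, and 32, 23 and 29 had an unadjusted p under 0.05. The share of all genes at that unadjusted level is not given here. Nothing is therefore read from these counts or from those of the single lists below.

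Of the 7 lists, T cell receptor signalling had the largest share called in GMP fl/p30, 50%. Of 12 measured, 6 rose in GMP fl/p30 (Txk, Fyn, Grap2, Themis, Rhoh and Prkcq), 2 in GMP fl/BRM2 (Rhoh and Prkcq) and 1 in preGM fl/p30 (Prkcq). Prkcq, the protein kinase C that relays the receptor signal, was at 5.17, 5.24 and 6.04 in GMP fl/+ and at 8.0, 8.94 and 8.79 in GMP fl/BRM2. It was at 9.52, 9.67 and 8.21 in GMP fl/p30, so that no mutant array overlapped the control. It rose by 3.65 ± 0.34 in GMP fl/p30 and by 3.09 ± 0.34 in GMP fl/BRM2 (limma adjusted p = 3.32e-05 and 0.00023). Its GMP fl/+ mean, 5.48, lay below the background level. Fyn, a Src family kinase, rose by 1.35 ± 0.23 in GMP fl/p30 (adjusted p = 0.00341), and Rhoh, a GTPase that helps recruit the kinase ZAP-70, by 1.08 ± 0.18 (adjusted p = 0.00304).

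Of the 12 receptor chains and coreceptors 1 (8.33%) rose in GMP fl/p30, and of 19 NK receptor genes 1 (5.26%), where 4.69% of all genes did. Trat1, an adaptor bound to the T cell receptor, rose by 0.90 ± 0.21 to a level of 4.68, below background (adjusted p = 0.0208). Cd28, a costimulatory receptor, fell by 0.84 in preGM fl/p30 (adjusted p = 0.041). Among the NK receptor genes, Fcer1g, the signalling chain of several Fc and NK receptors that myeloid cells also use, rose by 1.14 ± 0.23 in GMP fl/p30 (adjusted p = 0.00932). None of the 19 passed in GMP fl/BRM2 or in preGM fl/p30, where 2 and 3 had an unadjusted p under 0.05. Slamf7 and Slamf6, receptors of the family that EAT-2 serves, differed by 0.62 (adjusted p = 0.371) and 0.06 (adjusted p = 0.938) in GMP fl/p30. The group means of both genes lay below background in GMP fl/+ and in GMP fl/p30, where they were 5.45 and 4.66. Slamf7 exceeded background in 1 of the 3 GMP fl/p30 arrays. These differences therefore do not show that the receptors were expressed and unchanged.

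Of 13 genes of killing, Gzmb and Gzmc, both granzymes, rose in GMP fl/p30 and in GMP fl/BRM2, and Gzmb in preGM fl/p30. Gzmb was at 7.12, 7.41 and 7.35 in GMP fl/+, at 11.50, 12.22 and 11.71 in GMP fl/BRM2, and at 12.36, 11.88 and 11.55 in GMP fl/p30. In preGM it was at 5.48, 4.57 and 5.21 in +/+, below background, and at 10.83, 10 and 10.13 in fl/p30. All 9 mutant arrays stood far above the 6 control arrays. Gzmc lay below background, at 5.07 in GMP fl/p30 and 5.17 in GMP fl/BRM2. Nkg7 differed by 0.03 ± 0.27 in GMP fl/p30 and 0.02 ± 0.27 in GMP fl/BRM2.

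Among 16 transcription factors, 5 rose in GMP fl/p30 (Tox, Runx3, Hes1, Id2 and Zbtb16), 3 in GMP fl/BRM2 (Tox, Id2 and Zbtb16) and 2 in preGM fl/p30 (Tox and Zbtb16). Tox, a factor of T and innate lymphoid development, was at 6.35, 6.60 and 6.07 in GMP fl/+, at 7.45, 8.51 and 8.60 in fl/BRM2, and at 10.94, 10.58 and 9.80 in fl/p30. It was the single gene of all tested that passed between the 2 alleles, by 2.25 ± 0.30 (adjusted p = 0.0482), and 13 of 15 single left-out arrays ended that call (adjusted p up to 0.23). Id2, an inhibitor of E proteins needed by innate lymphoid cells, rose by 2.73 ± 0.43 in GMP fl/p30 (adjusted p = 0.00169), and Zbtb16, the factor PLZF of innate-like T cells, by 1.57 ± 0.24 (adjusted p = 0.00145).

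Of 14 checkpoint and costimulatory genes, 3 rose in each GMP mutant group (Lag3, Havcr2 and Tnfrsf18) and Lag3 also in preGM fl/p30. Lag3, like Pdcd1 an inhibitory receptor of activated T cells, rose by 1.97 ± 0.27 in GMP fl/p30, by 1.53 ± 0.27 in GMP fl/BRM2 and by 1.56 ± 0.27 in preGM fl/p30 (limma adjusted p = 0.000709, 0.00802 and 0.0101). Havcr2, the receptor TIM-3, rose by 1.25 ± 0.21 and 1.03 ± 0.21 in GMP fl/p30 and GMP fl/BRM2, and Tnfrsf18, the receptor GITR, by 1.5 ± 0.22 and 0.93 ± 0.22. Of 13 genes of lymphocyte chemokines and of chemokine and cytokine receptors, Xcl1, Il7r, Il18r1 and Il12rb2 rose in GMP fl/p30. Il12rb2 also rose in GMP fl/BRM2 and Il18r1 in preGM fl/p30. Il12rb2, a chain of the interleukin-12 receptor, rose by 1.94 ± 0.22 and 1.35 ± 0.22 in the 2 GMP mutant groups (adjusted p = 0.00015 and 0.00484).

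Some of these calls rested on single arrays. In GMP fl/p30 12 of 16 named calls held in each of 15 leave-outs; Fcer1g and Il7r were lost without GMP fl/p30 replicate 1 (adjusted p = 0.0506 and 0.052), Trat1 without that array or GMP fl/+ replicate 2 or 3 (up to 0.0754), and Gzmc without any 1 of 12 arrays (up to 0.182). In GMP fl/BRM2 4 of 11 held (Prkcq, Gzmb, Tox and Il12rb2). The other 7 did not pass with fl/BRM2 replicate 2 left out, and all but Lag3 also without other arrays (up to 0.268, for Rhoh); the count of 11 became 4 without that replicate, 5 without fl/BRM2 replicate 3, 6 without GMP fl/+ replicate 2 or 3, and 7 without replicate 3 of either preGM group. In preGM fl/p30 Gzmb and Tox held, whereas Prkcq, Zbtb16, Lag3, Il18r1 and Cd28 were lost without at least 2 preGM arrays each (up to 0.181), and the 6 called higher became 2 without preGM +/+ replicate 2 and 3 without any other preGM array. The 3 called lower became 1 without any preGM array, GMP fl/+ replicate 3 or GMP fl/BRM2 replicate 3.

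Between GMP fl/p30 and GMP fl/BRM2 1 of the 99 passed (1.01%, against 0.00502% of all genes). Between the 2 fl/p30 stages Gzmb and Txk were higher in GMP and Il18r1 lower, by 1.61, 0.77 and -1.62 (adjusted p = 0.014, 0.021 and 0.00936); of all genes 0.356% were called higher and 0.286% lower. The Gzmb call was lost without preGM fl/p30 replicate 2 or 3 and the Il18r1 call without replicate 3 (adjusted p up to 0.0904 and 0.0623). Between the controls 4 were higher and 14 lower in GMP fl/+, or 4.04% and 14.1%, against 4.19% and 6.02% of all genes. Il7r, the interleukin-7 receptor of lymphoid progenitors, fell by 2.24 ± 0.27 (adjusted p = 0.000447), Prkcq by 2.06 and Il18r1 by 1.95, while Gzmb rose by 2.21. The lower group mean lay below the background level for Il7r (4.82), Prkcq (5.48) and Gzmb (5.09), so these sizes may understate the change. Without preGM +/+ replicate 1 the 14 became 7, without replicate 3, the array with the high B lymphoid markers, 8, and without preGM +/+ replicate 2 or GMP fl/+ replicate 3, 9; the 4 higher became 2 without any preGM +/+ array. For the difference of the p30 effects between the stages, whose controls differ in genotype, 0 of the 99 passed in limma, against 0.00502% of all genes. At an unadjusted p under 0.05 there were 17, against 13.1% of all genes.

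**Figure D5:**
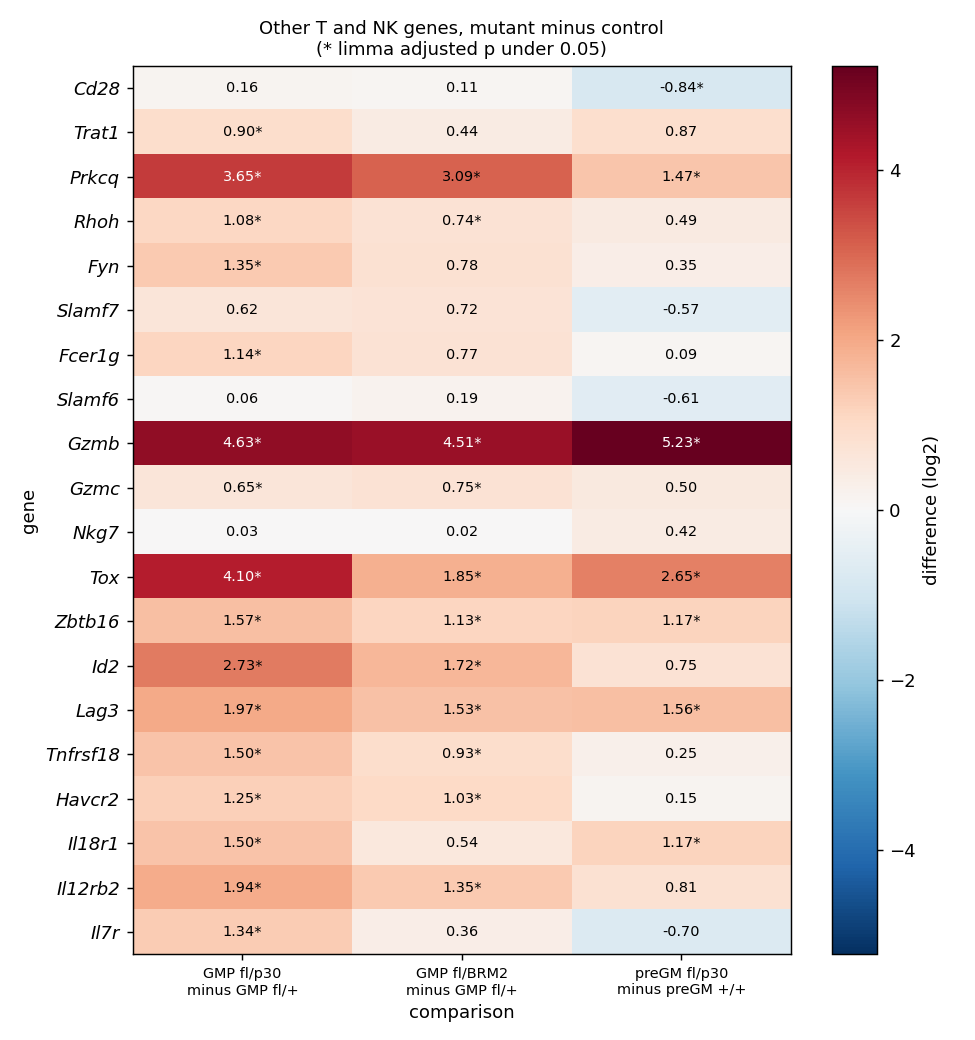
Heat map of the log2 differences of the named genes of the 7 lists (rows) in the 3 comparisons of a mutant with its control (columns), with * where the limma adjusted p is under 0.05. Prkcq, Gzmb, Tox, Zbtb16 and Lag3 carry the mark in all 3.

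The genes whose levels ran most like these 9 over the 15 arrays were found for the 5 whose group means span at least 1. The measure is the root mean square difference of mean-centred log2 profiles, a description over arrays that share their groups. Nearest to Ccl5 were Gimap9 (0.49), a GTPase gene of lymphocytes, Il12rb2 (0.49) and Zbtb10 (0.51). Nearest to Lat were Ikzf2 (0.34), the factor Helios, Fyb (0.36), an adaptor of T cells and platelets, and Olfr248 (0.36). Nearest to Ctsw were Itgax (0.34), the integrin CD11c, Adgrl2 (0.38) and Atp8b1 (0.38). Nearest to Pdcd1 were Themis (0.27), Jup (0.27), which encodes plakoglobin, and Matn2 (0.30). Nearest to Sh2d1b1 were Lpcat2 (0.41), Ffar2 (0.41) and Atp8b1 (0.48). Itgax, for example, averaged 5.94 in preGM +/+, 6.91 in preGM fl/p30, 5.63 in GMP fl/+, 6.96 in GMP fl/BRM2 and 7.89 in GMP fl/p30.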

How the data were processed

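Total RNA (20 ng) from sorted cells was amplified and hybridised to 15 arrays, 1 per sample. Per probe set, the authors deposited log2 levels; affy and RMA are named in the submitters' processing notes, with versions not given in the sources used. RMA normalizes arrays to common quantiles, so a shift shared by most genes would not show. Of 34760 probe sets, 21640 had 1 gene symbol in the platform annotation, 1321 several and 11799 are unnamed here; the 19937 genes were each represented by the probe set with the highest mean. Dim probe sets were kept. The number of arrays (3 per group) limits the precision.

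A model of 5 group means was fitted to all 15 arrays with limma 3.58.1 (R 4.3.3), moderated by eBayes (degrees of freedom 10 residual, 4.24 prior). Calls were made at a Benjamini-Hochberg adjusted p under 0.05, with the adjustment taken over all 19937 genes. The fit was checked on simulated data. The root mean square SD within a group ranged from 0.165 (preGM +/+) to 0.319 (GMP fl/+), so the shared spread is an approximation for each group.

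The labels number the animals, and the same 3 animals, one per replicate number, gave both fl/p30 groups; deviations from the group means of the 2 arrays of an animal correlated across genes at 0.334, 0.32 and 0.116. The 9 genes, the lists and the alternatives were chosen with earlier results of these data known. All 9 genes were named in every array, with up to 3 genes of each list called in the most comparisons (ties by size of difference) and the 3 nearest profiles of each gene spanning at least 1. Txk, Grap2, Themis, Runx3, Hes1, Xcl1, Notch1 and Btla, which complete small counts, were named after their values were seen. Other alternatives were other probe set rules, a background filter, scaling to a common median, array weights, a trended and robust fit, fits of only the arrays compared, blocks and single left-out arrays.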

Additional observations from a re-analysis of the deposited data

How the results depend on the processing

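With 3 arrays per group and 1 probe set per gene the estimates are coarse, and Cd3g and Klrd1 lie at background. Leaving out 1 array in turn gave medians of the 9 genes of 1.17 to 1.53 (GMP fl/p30 against fl/+), 0.44 to 0.60 (GMP fl/BRM2 against fl/+), 0.60 to 0.89 (preGM fl/p30 against +/+), 0.52 to 1.05 (between the alleles), 0.11 to 0.42 (between the fl/p30 stages) and -0.36 to -0.10 (between the controls). The genes called among the 9 numbered 0 to 2 higher between the alleles, 0 to 1 higher between the fl/p30 stages and 0 to 2 lower between the controls. Of the 99 other genes, 15 to 22 were called higher and 0 to 2 lower in GMP fl/p30, 4 to 13 and 0 to 2 in GMP fl/BRM2, 2 to 8 and 1 to 3 in preGM fl/p30, 0 to 2 higher between the alleles, 0 to 3 and 0 to 1 between the fl/p30 stages, 2 to 6 and 7 to 14 between the controls, and 0 to 5 and 0 to 2 for the difference of the p30 effects. With array weights the medians were 1.47 in GMP fl/p30 and -0.11 between the controls, and 6 of the 9 genes passed between the alleles and 3 between the fl/p30 stages. Of all 19937 genes, array weights called 211 higher and 72 lower between the alleles and 1197 and 751 between the fl/p30 stages. That setting called 4 of the 99 lower in GMP fl/p30, 2 lower in GMP fl/BRM2, 11 higher in preGM fl/p30, 12 higher between the alleles, 13 higher and 3 lower between the fl/p30 stages, and 13 higher and 1 lower for the difference of effects. Fitting only the arrays compared called 10 higher in GMP fl/p30, 4 in GMP fl/BRM2, 13 higher and 5 lower in preGM fl/p30, 0 higher between the alleles, 0 higher between the fl/p30 stages and 2 higher between the controls, and 1 of the 9 lower there. Scaling to a common median gave 1 of the 9 between the alleles and 1 of the 99 for the difference of effects, and the trended robust fit 1 of the 9 between the alleles. Of all genes, each of these fits called 2 higher and 0 lower between the alleles. For the difference of effects scaling called 28 of all genes higher and 1 lower. The background filter removes Cd3g and Klrd1, so it gives no median of 9, and it left 1 of the 9 lower between the controls. That filter called 1197 of 12442 genes lower there, and fitting only the arrays compared called 503 of 19937. The replicate number as a block, a number that marks no shared animal outside fl/p30, gave 0 higher between the alleles and 1 lower in preGM fl/p30, with 22 higher in GMP fl/p30; the animal as a block kept 0 of the 9 and 2 higher and 1 lower of the 99 between the fl/p30 stages, and the blocks changed no other count by over 1.5 times. Small differences changed sign. Between the fl/p30 stages Bcl11b (-0.04) was 0.01 at a common median and -0.14 to 0.05 over left-out arrays, Cd7 (0.12) was -0.01 to 0.21, and Lat (-0.11) was 0.15 with array weights and -0.38 to 0.17 over left-out arrays. Lat was 0.07 without preGM fl/p30 replicate 3. Over left-out arrays Lat between the alleles (0.19) was -0.08 to 0.46 and Pdcd1 between the controls (-0.02) was -0.16 to 0.16, with 0.10 under array weights. The cause was not tested.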
